A study of Mus musculus with 42 samples.

Results

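Livers of obese mice with and without ChemR23 were compared, using the 7 obese ChemR23 knockout (KO obese) and the 7 obese wild type (WT obese) mice that received vehicle. These are the 14 libraries of the deposited genotype table for the high fat diet, out of 42 libraries in the series, and each library is the whole liver of 1 male mouse. KO mice were made by CRISPR/Cas9 editing on a C57BL/6J background, and the WT mice were littermates. From 6 weeks of age all 14 mice ate a diet with 60% of its energy as fat for 15 weeks, and ethanol in PBS, the vehicle of resolvin E1 (RvE1), was injected into the peritoneum on 4 days before harvest on day 5 after fasting. The other 28 mice were lean WT and KO mice on a diet with 10% of energy as fat, also given vehicle, and obese WT and KO mice given 300 ng RvE1. The labels name no promoter that would limit the knockout to a tissue, and they do not say which piece of the gene was removed.

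ChemR23 is a G protein-coupled receptor encoded by Cmklr1 and is found mainly on macrophages, dendritic cells and other immune cells, and also on adipocytes and endothelial cells. It binds chemerin, a protein that liver and fat secrete and that attracts immune cells, and it binds RvE1, a lipid made from eicosapentaenoic acid that helps to end inflammation. In fatty liver the receptor and its ligands have been studied for their part in glucose handling, lipid storage and macrophage recruitment.

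Each library held between 15992525 and 43841120 reads on listed genes, with a median of 23400717 in KO obese and 21884150 in WT obese mice. The ribosomal RNA gene Rn45s took the most reads in every library, between 5.01% and 19.48% of the total, and high and low shares occurred in both genotypes. Hepatocyte genes dominated the tissue. The 12 hepatocyte markers summed to 1235900 ± 255550 normalized counts (SD, n = 7 mice) in livers of WT obese mice and to 1185200 ± 168590 (SD, n = 7) in those of KO obese mice, and albumin (Alb) was the most abundant of them. A normalized count is the number of reads on a gene divided by a size factor of its library. The bulk tissue cannot tell fewer cells of a type from less RNA per cell.

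Mouse identifiers open with a number, which was 22, 27 or 6 in WT obese and 10, 23 or 31 in KO obese mice. No number occurred in both genotypes and the labels do not say what it stands for, so whatever the number marks and the genotype cannot be told apart within these mice. The first principal component of log2(normalized count + 1) over the genes tested held 30.8% of the variance and set some numbers apart in both genotypes. Scores were 14.4 to 45.5 in WT obese mice numbered 6 and 29.2 to 40.7 in KO obese mice numbered 10, against -34.0 to -9.23 in WT obese mice numbered 22 or 27 and -51.4 to 9.03 in KO obese mice numbered 23 or 31. The genotypes overlapped along it, and its part in the results was not tested.

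A pair of libraries, WT obese mouse 6L and KO obese mouse 10R, stood apart in some markers of other tissues. The fat cell gene Adipoq, which encodes adiponectin, had a normalized count of 32.3 in 6L and 17.6 in 10R, and 2.14 or less in the other 12 mice. Lep, the leptin gene of fat cells, had 52.9 and 31.3 against at most 1.69, and the lipid droplet gene Plin1 28.4 and 12.99 against at most 1.69. Krt19, a keratin of bile duct and other epithelia, had 186 and 152.1 against at most 37.4, the pancreatic gene Ctrb1 35.2 and 9.94 against at most 2.88, and the smooth muscle actin gene Acta2 94.96 and 49.7 against at most 29.5. These genes were singled out after their values were seen, and their part in the results was not tested. The calls and a summary of the leading genes are therefore also given without both mice. Not all fat cell and pancreatic markers followed them. The pancreatic genes Cpa1, Cpb1, Amy2a5 and Pnlip had 0 in 6L and at most 0.764 in 10R. In 6L, Cfd (134.1) and Car3 (34977) were at the lowest WT obese value, and Cela1 had 452.3 against a WT median of 592.7. In 10R, Car3 (37338) was at the lowest KO obese value, and Cela1 had 244.6 against a KO median of 404.1. Cfd in 10R had 337.8 against a KO median of 249.1. Cfd, Car3 and Cela1 were well above 0 in every mouse, so a trace of other tissue cannot be read from them. Of the bile duct markers, Krt7 and Epcam were also highest in 6L, at 54.8 and 45.0.

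The table lists 19755 genes. Those whose normalized count averaged 5 or more over the mice, 14162 genes, were tested with limma on log2(normalized count + 1), and the other 5593 (28.3%) were not. A gene was called at a Benjamini-Hochberg (BH) adjusted p below 0.1 and a fold change above 1.5. KO obese liver differed from WT obese liver in 2 genes, or 0.0141% of those tested, with 1 gene (0.00706%) in each direction. Cmklr1, the edited gene, fell, and its neighbour on chromosome 5, Wscd2, rose. All other genes had an adjusted p of 0.862 or more in limma. Without adjustment, p was under 0.05 for 319 genes (2.25%), split into 154 (1.09%) with a higher and 165 (1.17%) with a lower level in KO obese mice. On recovered reads, edgeR's quasi-likelihood test called Cmklr1 and Wscd2 (adjusted p = 0.0481 and 0.0799), and DESeq2's Wald test added Igfbp5 to them. With the identifier number fitted as a random effect, 0 genes passed in limma, and p without adjustment was under 0.05 for 75 (0.53%). Other settings gave more such genes, with 769 under library quality weights, 548 and 482 without WT obese mouse 22L or 6R, and 538, 598 and 623 without the mice numbered 27, 10 or 6. The count was 174 without mice 6L and 10R, when limma called 1 gene, Wscd2, at a log2 fold change of 3.75 (adjusted p = 0.00521), and Cmklr1 had -1.97 (adjusted p = 0.369).

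**Figure D1:**
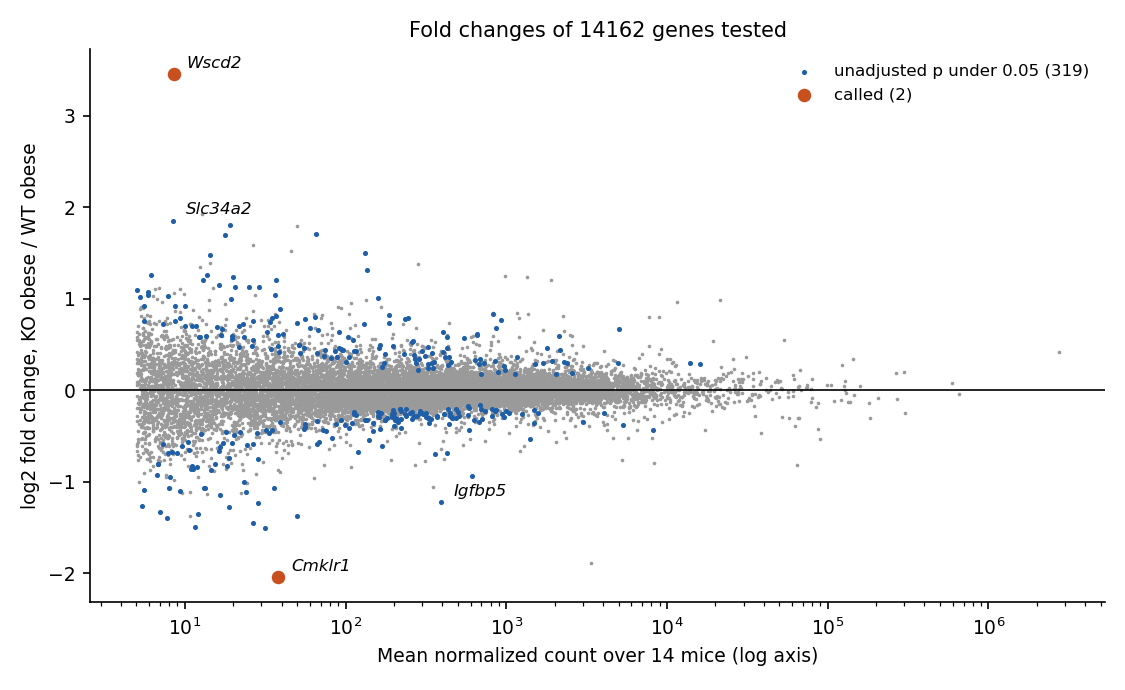
Each point is 1 of 14162 genes tested, with its mean normalized count over 14 mice on a log axis and its log2 fold change in KO obese relative to WT obese mice. Orange points are the 2 genes called, Wscd2 at 3.45 and Cmklr1 at -2.04, blue points are the others among the 319 genes at an unadjusted p under 0.05, and grey points are the rest. The cloud narrows toward abundant genes.

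Cmklr1 lies on chromosome 5 of GRCm38 (mm10), from 113612354 to 113650426 on the minus strand. Its normalized count in WT obese mice was 33.3 at the lowest, 51.5 at the median and 101.7 at the highest, and in KO obese mice 5.08, 14.2 and 23.2. Every KO obese mouse lay below every WT obese mouse. The means were 62.0 ± 24.2 (SD, n = 7 mice) and 14.5 ± 5.96 (SD, n = 7), and the log2 fold change was -2.04 (SE 0.31, 95% interval -2.69 to -1.40, limma adjusted p = 0.0339). Reads on Cmklr1 were still present in each KO obese mouse, between 3 and 37 per library against 27 to 144 in WT obese mice. An antisense gene, Gm15736, overlaps Cmklr1 and was not listed. The strand setting of the counting is not given in the sources used here, so reads of the pair cannot be told apart. Without WT obese mouse 22L or 6L, or without KO obese mouse 10R or 31L, Cmklr1 was no longer called (adjusted p = 0.127, 0.132, 0.106 and 0.120 in limma), with log2 fold changes between -2.04 and -1.97. The call was also lost in limma without all mice numbered 10, 27, 31 or 6 (adjusted p = 0.146, 0.261, 0.899 and 0.774). Equal library totals, the identifier number as a random effect and leaving out mice 6L and 10R ended it too (0.142, 0.153 and 0.369).

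The region around the RefSeq start of Cmklr1 is shown because reads on the gene remained in KO mice and the labels do not say whether the editing touched it. It spans chr5:113643554-113643853 of GRCm38.p6 on the minus strand, 250 bases before and 50 after the start, and lies within the longer gene model given above. Capitals mark the letters CCAAT, present once as printed and once on the other strand, where they read ATTGG. Of 32851 RefSeq promoters of this length, 37.4% hold CCAAT on either strand. The letters TATAAA did not occur in the region on either strand and are found in 13.6% of these promoters.
Cmklr1: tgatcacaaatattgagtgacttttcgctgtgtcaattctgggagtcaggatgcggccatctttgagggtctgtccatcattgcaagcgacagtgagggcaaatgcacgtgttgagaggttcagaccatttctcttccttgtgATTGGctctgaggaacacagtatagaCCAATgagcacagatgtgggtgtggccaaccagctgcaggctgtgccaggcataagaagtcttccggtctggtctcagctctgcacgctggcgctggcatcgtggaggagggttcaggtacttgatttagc

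Wscd2 encodes a protein with a WSC domain and a sulfotransferase domain. It lies from 113490333 to 113589725 on the plus strand, 22.6 kb from Cmklr1, so that the 3′ ends of the genes face each other. The normalized counts in WT obese mice were 0 at the lowest and the median and 4.90 at the highest, and in KO obese mice 3.79, 16.9 and 23.2. KO obese mice lay above the highest WT obese mouse in 6 of 7 cases, and KO obese mouse 31L lay below WT obese mouse 6L. In WT obese mice the mean was 0.847 ± 1.83 (SD, n = 7) and in KO obese mice 16.2 ± 6.36 (SD, n = 7), and the log2 fold change was 3.45 (SE 0.47, 95% interval 2.45 to 4.45, limma adjusted p = 0.0216). In reads, 5 WT obese mice had none and the group had 6 in all, while KO obese mice had between 3 and 37. With so few reads the fold depended on the pseudocount, from 2.03 on the log2 scale with a pseudocount of 4 to 4.19 with 0.5.

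Mice outside the comparison showed the same pair of differences. Levels across groups are given as RPM, reads on a gene per 1000000 reads on the genes that all tables share. Cmklr1 in lean mice had 2.80 ± 1.07 RPM (SD, n = 7) with the receptor and 0.504 ± 0.152 RPM (SD, n = 7) without it, next to 2.73 ± 1.36 (SD, n = 7) and 0.631 ± 0.319 (SD, n = 7) in the obese groups. Among RvE1-treated obese mice WT had 3.37 ± 1.92 RPM (SD, n = 7) and KO 0.538 ± 0.187 RPM (SD, n = 7). Wscd2 had 0.0281 ± 0.0271 RPM (SD, n = 7) in the lean WT group and 0.763 ± 0.272 RPM (SD, n = 7) in the lean KO group, and 0.837 ± 0.364 (SD, n = 7) in KO obese mice given RvE1. Wscd2 in WT obese mice given RvE1 was not analysed here. In each of these 3 comparisons the values of the genotypes did not overlap. A two-sided exact permutation test gave p = 0.00058275 for each, also after BH adjustment over 3 tests, and this is the smallest p that groups of 7 can give. The test takes the mice as independent, although in these groups too mice share identifier numbers that differ between the genotypes.

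**Figure D2:**
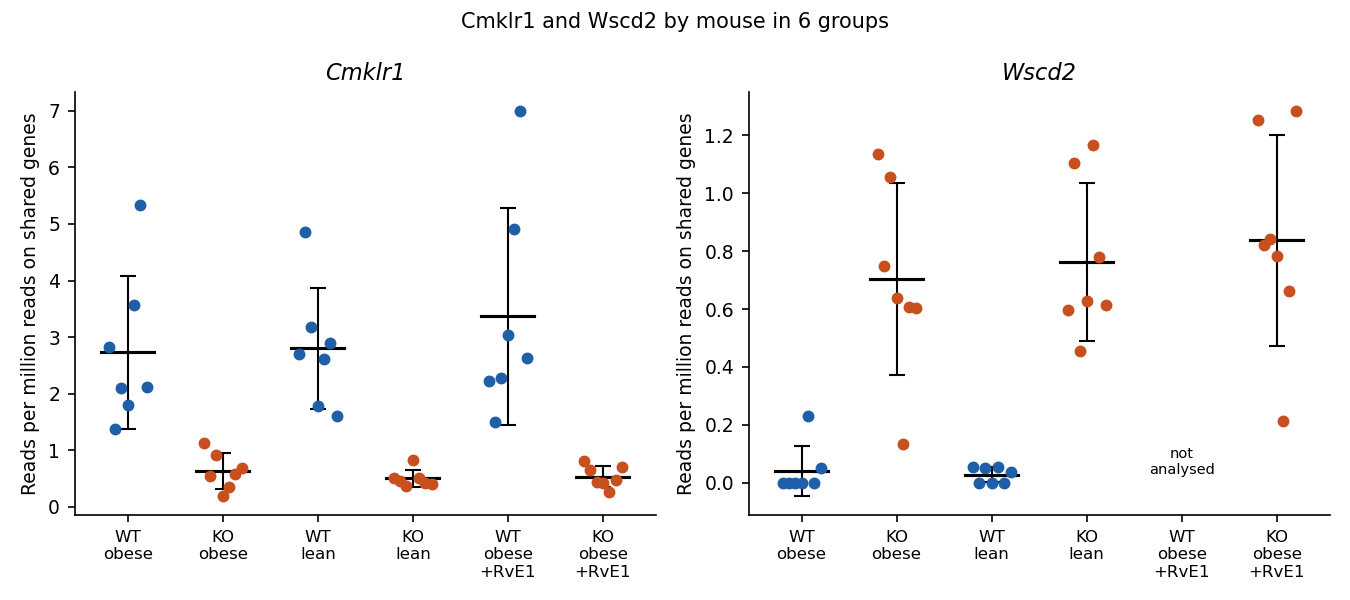
RPM, reads per 1000000 reads on genes shared by all tables, for Cmklr1 (left) and Wscd2 (right), with 1 point per mouse, WT in blue and KO in orange, and black bars at the mean ± SD of 7 mice. Cmklr1 means were 2.73 to 3.37 in the WT groups and 0.504 to 0.631 in the KO groups, and Wscd2 means were 0.0281 and 0.0403 in WT and 0.703 to 0.837 in KO groups.

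The drop in Cmklr1 had about the same size in lean mice, with a log2 fold change of -2.23 against -2.04 in obese mice, and Wscd2 had 3.62 against 3.45. The difference of the genotype effects, obese minus lean, was 0.18 for Cmklr1 (adjusted p = 0.850) and -0.17 for Wscd2 (adjusted p = 0.916) in limma. The standard errors of these differences were 0.40 and 0.58.

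Genes around the edited locus were examined in order of position. Annotation places 60 genes within 1 Mb of either end of Cmklr1, of which 23 were tested. Beside Cmklr1 and Wscd2 none of the 21 was called, and 0 had an unadjusted p under 0.05 in limma. Their log2 fold changes ran from -0.56 for Fam222a to 0.44 for Ung, the uracil DNA glycosylase, with a median of -0.03. The nearest tested gene on the far side of Cmklr1 was Ficd, an enzyme of the endoplasmic reticulum, at 85.4 kb, with a log2 fold change of 0.15 (95% interval -0.21 to 0.51). Next to it were Sart3 (-0.06, interval -0.28 to 0.16) and Iscu, an iron-sulfur cluster scaffold (-0.03, interval -0.28 to 0.22). Beyond Wscd2 the nearest tested gene was Sgsm1 at 301.6 kb (0.16, interval -0.46 to 0.77). For 19 of these 21 genes the 95% interval lay inside a fold of 2 in both directions, and for 9 inside a fold of 1.5. Acacb, the mitochondrial acetyl-CoA carboxylase, and the mevalonate pathway gene Mvk belong to the same stretch, at 0.19 (interval -0.31 to 0.70) and -0.25 (interval -0.64 to 0.13).

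**Figure D3:**
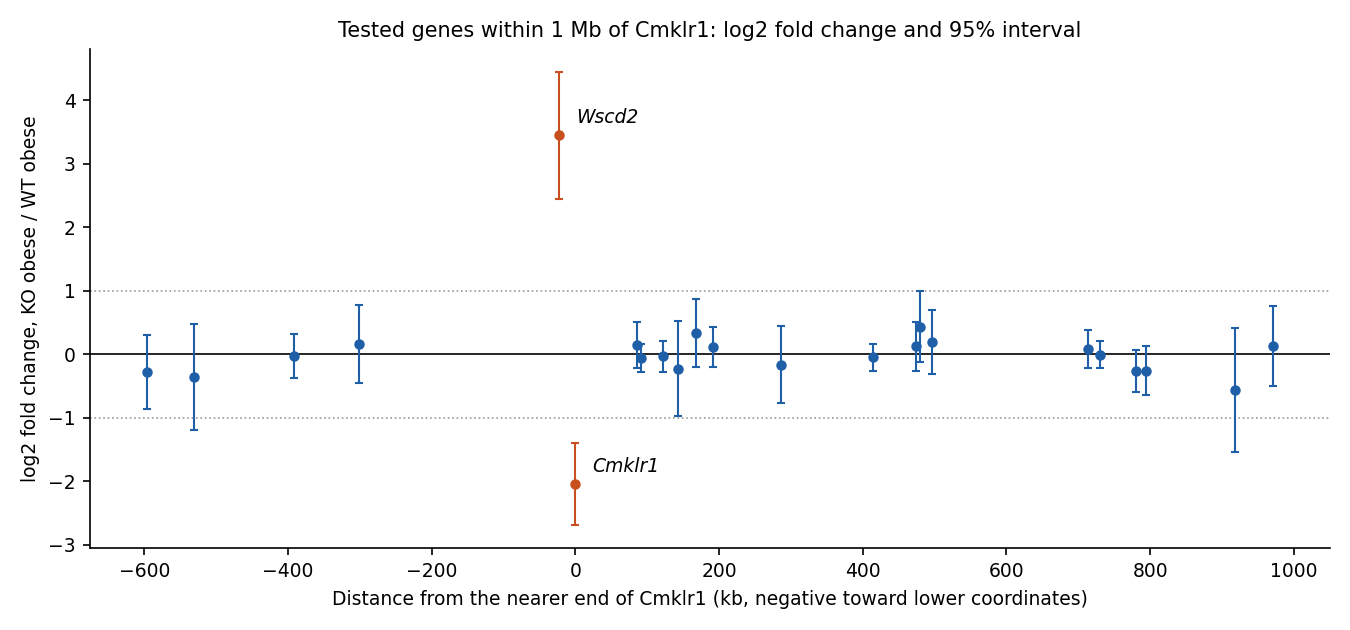
Log2 fold change in KO obese relative to WT obese mice, with its 95% interval, for the 23 tested genes within 1 Mb of Cmklr1, against the distance in kb from the nearer end of Cmklr1. Wscd2 at 22.6 kb and Cmklr1 itself (orange) stand apart, and the other 21 genes (blue) lie between -0.56 and 0.44. Dotted lines mark a fold of 2.

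Ligands, receptors and enzymes of the ChemR23 axis were measured in 16 of 19 members, and apart from Cmklr1 none was called or had an unadjusted p under 0.05 in limma. The median log2 fold change of the 16 was -0.07, beside -0.002 over all genes. Rarres2, which encodes chemerin, was the most abundant ligand gene, with 2558 at the lowest, 3586 at the median and 4381 at the highest in WT obese mice and 2931, 3479 and 4228 in KO obese mice. The groups overlapped over almost their whole range, and the log2 fold change was -0.04 (95% interval -0.30 to 0.21). Ccrl2, a receptor that binds chemerin without signalling, had 0.46 (interval -0.18 to 1.10). Gpr1, a further chemerin receptor, was listed with a mean normalized count of 0.137 in WT obese and 0.351 in KO obese mice and was not tested.

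Among receptors for related lipids, Ltb4r1, which encodes the leukotriene B4 receptor that RvE1 can also bind, had a log2 fold change of -0.33 (interval -0.88 to 0.21) and Ltb4r2 -0.01 (interval -0.39 to 0.37). Fpr2, the lipoxin and resolvin D1 receptor, ran from 8.65 to 18.4 with a median of 14.5 in WT obese mice and from 9.62 to 29.5 with a median of 21.0 in KO obese mice. In 5 of 7 KO obese mice Fpr2 exceeded the highest WT obese mouse, although mouse 31R was near the bottom of the WT range (0.48, interval -0.04 to 1.01). The enzymes that make these mediators showed no called difference. Lta4h, leukotriene A4 hydrolase, had 209.9, 256.1 and 294.2 as lowest, median and highest normalized counts in WT obese and 200.7, 226.6 and 231.9 in KO obese mice. All KO obese mice were below the WT median, and the log2 fold change was -0.20 (interval -0.39 to 0.00). Alox15, an enzyme of resolvin synthesis, had 0.961, 12.4 and 39.6 in WT obese and 0.567, 5.64 and 9.62 in KO obese mice, again with every KO mouse below the WT median (-1.13, interval -2.39 to 0.14). Alox5 and Ptgs2 were below the minimum and were not tested. Ephx2, soluble epoxide hydrolase, and the leukotriene hydroxylase Cyp4f14 had log2 fold changes of -0.10 and -0.26 with intervals that included 0.

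Downstream of the receptor, 18 of 18 genes of G protein signalling were tested, none was called and none had an unadjusted p under 0.05. Every one of their intervals lay inside a fold of 2. Gnai2, which encodes an inhibitory G protein subunit that ChemR23 couples to, had a log2 fold change of 0.13 (interval -0.04 to 0.31), and the arrestin genes Arrb1 and Arrb2 had 0.22 and -0.08.

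Most of the genes tested were measured well enough to bound the difference between the groups, with mice taken as independent. The 95% interval of the log2 fold change lay inside a fold of 1.5 for 65.4% of the 14162 genes and inside a fold of 2 for 88.3%. Among genes with a mean normalized count of 500 to 5000 the shares were 88.7% and 97.6%, and among those from 5 to 50 they were 12.0% and 60.9%. Estimated folds were below 1.5 in 97.17% of genes and above 2 in 73 genes (0.5155%). With the identifier number as a random effect, the shares over all genes fell to 56.1% inside a fold of 1.5 and 83.0% inside a fold of 2. These intervals are for single genes and are not adjusted for the number of genes. Nor can they separate the genotype from whatever the identifier number marks. Genes with few reads, and abundant genes that vary among mice, are where larger differences could be missed.

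Lipid storage and synthesis genes included no call, and a smaller share of their intervals lay inside a fold of 2 than over all genes. Among 26 lipogenesis genes 0 were called and 0 had an unadjusted p under 0.05, the median log2 fold change was 0.01, and 22 intervals lay inside a fold of 2. Fasn, fatty acid synthase, had -0.09 (interval -0.91 to 0.73), Acaca, acetyl-CoA carboxylase, -0.05 (interval -0.53 to 0.42) and Scd1, stearoyl-CoA desaturase, -0.30 (interval -1.22 to 0.62). For Scd1 the interval reached beyond a fold of 2. Of 17 lipid droplet genes, 12 were above 0 and 12 had intervals inside a fold of 2, with a median of 0.14. Plin2, the main droplet coat protein of hepatocytes, had 6867, 8052 and 13234 as lowest, median and highest normalized counts in WT obese and 8657, 11704 and 15183 in KO obese mice. All 7 KO obese mice were above the WT median while the ranges overlapped, and the log2 fold change was 0.34 (SE 0.16, unadjusted p = 0.0528 in limma).

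Fatty acid oxidation was measured in 30 genes, with a median log2 fold change of 0.05 and 24 intervals inside a fold of 2. Cpt1a, the gate of mitochondrial oxidation, had -0.02 (interval -0.33 to 0.30) and its regulator Ppara 0.11 (interval -0.17 to 0.39). A single member had an unadjusted p under 0.05. Fgf21, a fasting hormone secreted by liver, had 92.4, 121.5 and 218.3 in WT obese and 94.1, 253 and 291.1 in KO obese mice. In 5 of 7 KO obese mice Fgf21 was above every WT obese mouse, with mouse 31N near the lowest WT value (0.73, interval 0.21 to 1.25, limma adjusted p = 0.9999).

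For glucose metabolism, 26 genes gave a median of 0.01, and 24 intervals lay inside a fold of 2. Pck1, the gluconeogenic enzyme, had a log2 fold change of -0.30 (interval -0.83 to 0.23) and the glucose-6-phosphatase gene G6pc -0.25 (interval -0.97 to 0.48). The 26 insulin signalling genes had a median of 0.06, and 24 of them had intervals inside a fold of 2. Insr, the insulin receptor, had 0.02 (interval -0.18 to 0.22), and its substrates Irs1 and Irs2 had 0.13 and 0.18. In neither list was a gene called or at an unadjusted p under 0.05.

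Cholesterol synthesis had the most uneven signs of the metabolic lists. Of 26 genes, 25 were below 0 and 1, Insig2, was above 0, with a median log2 fold change of -0.21, although 0 were called and 0 had an unadjusted p under 0.05. Mvd, an enzyme of the mevalonate pathway, had -0.64 (interval -1.33 to 0.04) and Sqle, squalene epoxidase, -0.30 (interval -1.21 to 0.61). These genes share the regulator SREBP2, so their signs are not separate observations. Over the 29 lipoprotein genes the median was -0.05, with 0 called and 1, higher in KO obese mice, at an unadjusted p under 0.05. Bile acid genes had a median of 0.01 over 21 tested, with -0.52 (interval -1.24 to 0.19) for Cyp7a1, the rate-limiting enzyme of bile acid synthesis.

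**Figure D4:**
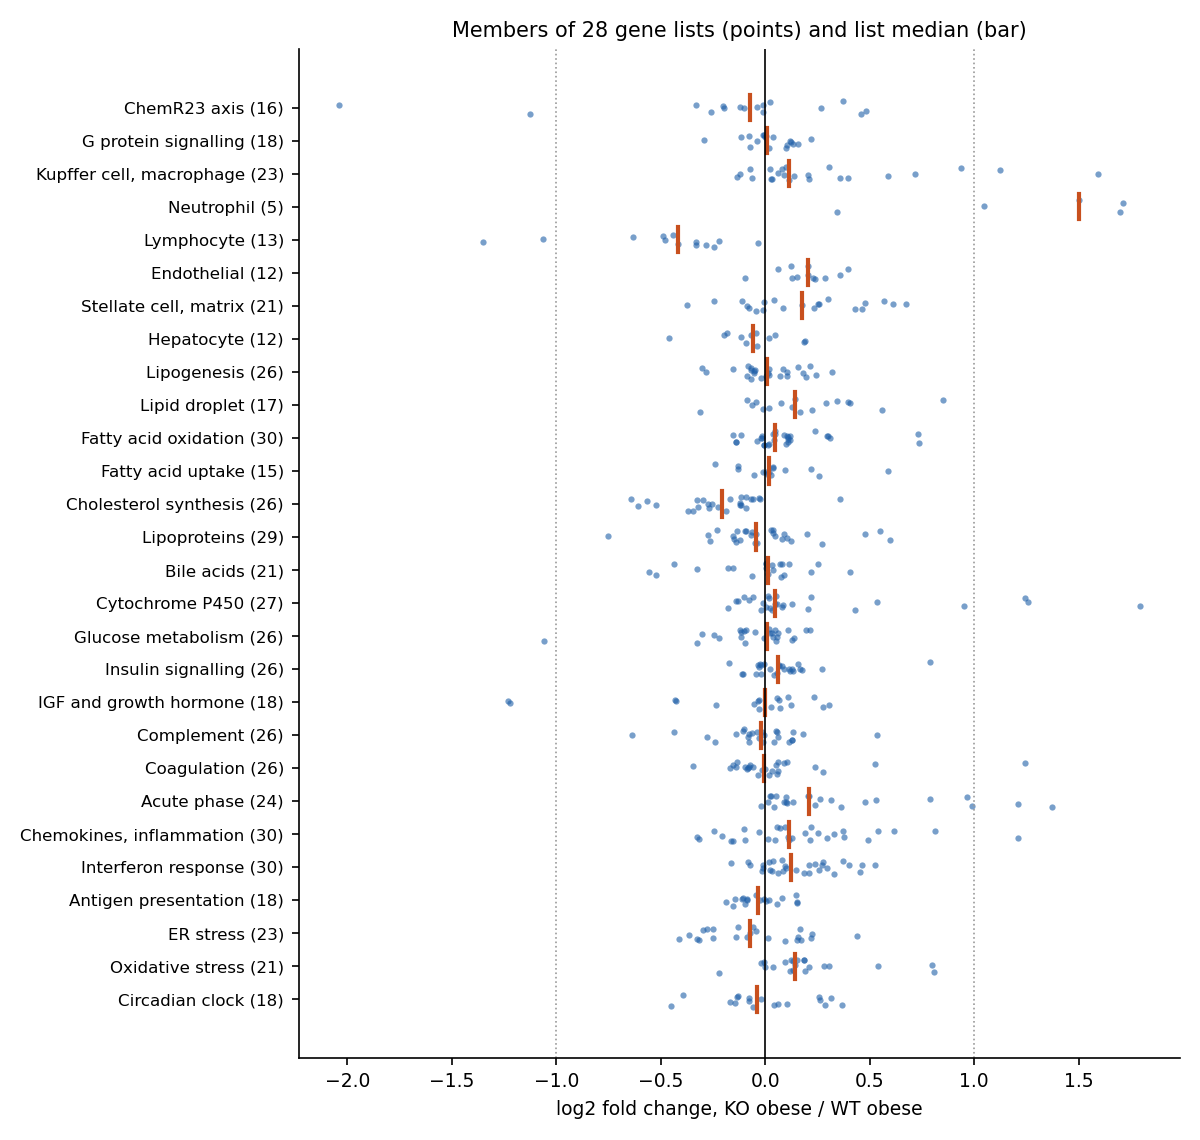
Log2 fold change in KO obese relative to WT obese mice for the tested members of 28 gene lists (blue points, with the number tested in brackets) and the median of each list (orange bar). The 5 neutrophil genes have a median of 1.502 and the 13 lymphocyte genes one of -0.42, and lists such as red cell and pancreas markers are not plotted. Dotted lines mark a fold of 2.

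Macrophage genes were described because macrophages carry ChemR23. Among 23 Kupffer cell and macrophage markers 0 were called, 2 had an unadjusted p under 0.05 and 19 were above 0, with a median log2 fold change of 0.11. The resident Kupffer cell genes Clec4f, Vsig4 and Timd4 had log2 fold changes of 0.03, 0.03 and -0.07. Other Kupffer cell genes, Cd5l, Marco and Emr1, had 0.30, 0.36 and 0.21 with intervals that included 0. For Cd5l all 7 KO obese mice were above the WT median. The receptor Csf1r had values of 333.8 to 706.3 in WT obese and 363.5 to 708.1 in KO obese mice. Cd68, a lysosomal macrophage protein, had 48.8, 78.2 and 162.4 as lowest, median and highest in WT obese and 65.6, 116.2 and 245 in KO obese mice (0.59, interval 0.00 to 1.17). Cx3cr1, a receptor of recruited monocytes, had 6.20, 9.79 and 43.8 against 10.8, 25.7 and 116.6 (1.13, interval 0.05 to 2.20). For both genes the ranges overlapped, and 1 mouse of each group, WT 6R and KO 10-2L, was the highest. The 23 markers summed to 13935 ± 2172 (SD, n = 7) in WT obese mice and 15394 ± 1938 (SD, n = 7) in KO obese mice, and the iron exporter gene Slc40a1, which hepatocytes also express, was the most abundant of them.

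Neutrophil genes had the largest median of any list, 1.502 over 5 tested of 10 members, yet 0 were called and the mice were widely scattered. S100a8 and S100a9 encode the calprotectin subunits of neutrophils and monocytes, and Cxcr2 is the receptor by which neutrophils follow chemokines. S100a9 had 14.7, 41.7 and 157.8 as lowest, median and highest in WT obese and 30.6, 146.5 and 578.8 in KO obese mice (1.5015, interval 0.09 to 2.91). S100a8 had 4.90, 13.5 and 68.6 against 12.0, 67.4 and 308 (1.71, interval 0.20 to 3.22). Cxcr2 had 1.96, 3.69 and 20.2 against 3.00, 33.1 and 55.5 (1.70, interval 0.39 to 3.01). In each, KO obese mice 23L, 31L and 31N lay above every WT obese mouse and the KO obese mice numbered 10 lay within the WT range, and the unadjusted p was under 0.05 in limma while the adjusted p was 0.9999. The summed neutrophil level followed this split, with 1090 in mouse 23L, 356 to 583 in the mice numbered 31 and 90.2 to 249 in those numbered 10, against 58.7 to 325 in WT obese mice. Mpo and Camp, granule genes of immature neutrophils, had means below 1 over the 14 mice, and Ly6g was not listed.

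B cell and T cell genes pointed the other way. All 13 tested lymphocyte genes were below 0, with a median of -0.42, 0 were called and 2 had an unadjusted p under 0.05. Ms4a1, which encodes CD20, had 6.16, 19.1 and 32.0 as lowest, median and highest in WT obese and 1.26, 9.62 and 13.02 in KO obese mice (-1.07, interval -2.05 to -0.08). Every KO obese mouse was below the WT median for Ms4a1, and 3 WT obese mice lay within the KO range. The lymphocyte genes summed to 203 ± 55.1 (SD, n = 7) in WT obese mice and 147 ± 28.9 (SD, n = 7) in KO obese mice, with Cd4 the most abundant member. Ighm and Trbc2 were not listed.

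Endothelial, stellate cell and bile duct markers had medians of 0.20, 0.18 and 0.14 with 0 genes called. In the stellate cell list 2 genes, Lum and Col4a1, had an unadjusted p under 0.05 in limma, both higher in KO obese mice. Col4a1, a collagen gene, had 237.5, 425.9 and 621.4 as lowest, median and highest in WT obese and 356, 533.4 and 1372 in KO obese mice (0.57, interval 0.01 to 1.13). Lum, which encodes the collagen-binding protein lumican, had 162.5, 234.5 and 373.4 in WT obese and 272.6, 326.9 and 418.9 in KO obese mice (0.43, interval 0.07 to 0.79), and every KO obese mouse was above the WT median. The 9 fat cell markers summed to 49439 in WT obese and 51327 in KO obese mice on average, nearly all of it Car3, which liver also expresses, and Adipoq, Plin1 and Lep were at or near 0 in all mice but 6L and 10R. The 3 red cell genes tested had a median of -0.76. Of these, Beta-s, a haemoglobin beta chain, had a log2 fold change of -0.76 (interval -1.54 to 0.01) and Slc4a1 -1.06 (interval -2.09 to -0.04). The 2 pancreatic genes tested had a median of -0.36, led by Cela1 (-0.40, interval -1.25 to 0.44), and Cpa1 was at a mean of 0 in WT obese and 0.109 in KO obese mice. The part of these cells in the results was not tested.

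Inflammatory mediators showed small positive medians without calls. Of 30 chemokine and inflammation genes tested, 21 were above 0 and 2 had an unadjusted p under 0.05, with a median log2 fold change of 0.11. Icam1, an adhesion molecule for leukocytes, had 162.6, 183.1 and 288.2 as lowest, median and highest in WT obese and 193.3, 254.5 and 590.3 in KO obese mice (0.54, interval 0.08 to 1.00). All KO obese mice were above the WT median, and mouse 10-2L was far above the rest. Cxcl2, a neutrophil chemokine, had 1.21 (interval 0.11 to 2.31), while Tnf, Il1b and Ccl2 had 0.37, 0.49 and 0.10 with intervals that included 0. The 30 interferon genes had a median of 0.12, and 29 intervals lay inside a fold of 2. Antigen presentation genes had a median of -0.04 over 18, and all 18 intervals lay inside a fold of 2.

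Among acute phase genes 23 of 24 were above 0, with a median of 0.21, 0 calls and 0 genes at an unadjusted p under 0.05. Orm3, an orosomucoid, had 13.2, 92.9 and 717.2 in WT obese and 200.3, 318.5 and 509.4 in KO obese mice (1.37, interval -0.10 to 2.85). All KO obese mice exceeded the WT median, and the single highest value was in a WT obese mouse. Saa1 and Lcn2 had 0.99 and 1.21 with intervals from -0.85 to 2.83 and from -0.85 to 3.27. Of the complement genes C9, the last component of the membrane attack complex, had 5830, 10206 and 12088 in WT obese and 4800, 6772 and 9124 in KO obese mice (-0.44, interval -0.80 to -0.07), and the median of 26 complement genes was -0.02. The coagulation genes had a median of -0.01 over 26, with 24 intervals inside a fold of 2. Of them 0 were called and 1 had an unadjusted p under 0.05, and the highest log2 fold change was 1.24.

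Genes of protein and energy machinery were tightly bounded. All 75 genes of the mitochondrial ribosome and 76 of 76 of the cytosolic ribosome had intervals inside a fold of 2, as did 75 of 76 nuclear genes of oxidative phosphorylation and 38 of 38 proteasome genes. Medians of the 4 lists were -0.09, -0.01, -0.05 and -0.06. Below 0 were 64, 43, 52 and 25 of their genes, beside 7166 of all 14162 genes. In limma 0 were called, and 2, 2, 0 and 1 had an unadjusted p under 0.05. Of 20 immediate early genes, which respond within minutes to handling and feeding, 4 had intervals inside a fold of 2, and the median log2 fold change of the 20 was 0.01. Of the 20, 0 were called and 3 had an unadjusted p under 0.05, all with higher levels in KO obese mice, Atf3, Ier3 (1.04, interval 0.18 to 1.90) and Klf6 (0.61, interval 0.11 to 1.11). Atf3, a stress-induced transcription factor, had 23.8, 46.8 and 145.4 as lowest, median and highest in WT obese and 31.7, 144.2 and 447.9 in KO obese mice (1.32, interval 0.21 to 2.43). Fos and Egr1 had -0.58 (interval -1.90 to 0.75) and -0.23 (interval -1.68 to 1.23). Clock genes had a median of -0.04 over 18, with 0.29 (interval 0.05 to 0.52) for Clock itself.

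The drug metabolism, stress, uptake and cell cycle lists also held no called gene. Members with an unadjusted p under 0.05 were Cyp3a41a (1.26, interval 0.19 to 2.33) of 27 cytochrome P450 genes and Dnajb9 (0.44, interval 0.08 to 0.80) of 23 endoplasmic reticulum stress genes. Fatty acid uptake, oxidative stress and cell cycle genes had medians of 0.02, 0.14 and -0.07 with 0 such members.

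The genes nearest to a call were led by Igfbp5, which encodes an insulin-like growth factor binding protein. Its normalized count was 286.7 at the lowest, 488.9 at the median and 1147 at the highest in WT obese mice and 164.4, 201.8 and 285.4 in KO obese mice. The groups did not overlap, by a margin of about 1 normalized count. The log2 fold change was -1.22 (SE 0.25, interval -1.76 to -0.68), limma gave an adjusted p of 0.862 and edgeR 0.484, and DESeq2 called it at -1.35 (adjusted p = 0.00271). Igfbp6, a related binding protein, had 8.48, 36.5 and 108.7 against 2.29, 16.0 and 38.5 (-1.23, interval -2.39 to -0.08), with overlapping groups. Igf1 itself, the main growth factor from liver, had 0.12 (interval -0.25 to 0.49), and the growth hormone receptor Ghr 0.07 (interval -0.27 to 0.41). Over the 18 genes of the growth factor and growth hormone list the median was -0.001.

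Values of the genotypes did not overlap in 4 of 14162 genes (0.0282%), with Cmklr1, Igfbp5 and Cbx1 lower (0.0212%) and Slc34a2 higher (0.00706%) in KO obese mice. Cbx1, a heterochromatin protein gene named after its value was seen, had a log2 fold change of -0.21 (SE 0.08, limma adjusted p = 0.9999). Slc34a2, a sodium phosphate cotransporter, had 0, 3.69 and 5.77 as lowest, median and highest in WT obese and 8.15, 12.99 and 26.7 in KO obese mice, with a log2 fold change of 1.85 (interval 0.94 to 2.77). Although it lies on chromosome 5, its position from 53038081 to 53071664 is far from Cmklr1. Its adjusted p was 0.9999 in limma and 0.114 in DESeq2, and in lean mice the log2 fold change was -0.72 (limma adjusted p = 0.747).

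Of the other 9 genes higher in KO obese mice with the smallest unadjusted p, Pcp4l1 had 104.2, 176.1 and 237.3 in WT obese and 178.5, 336.3 and 419.1 in KO obese mice (0.79, interval 0.38 to 1.21), and 6 of 7 KO obese mice were above every WT obese mouse. Ptafr, the platelet activating factor receptor of myeloid cells, had 3.96, 8.65 and 19.8 against 13.5, 25.2 and 74.6 (1.24, interval 0.42 to 2.06), and Tlr13, an endosomal sensor of bacterial RNA, 34.1, 51.9 and 89.0 against 58.1, 71.6 and 123.4 (0.66, interval 0.21 to 1.12). For both, all KO obese mice were above the WT median and the groups overlapped. Slc16a6 (0.78), Tmem229a (0.61), Srpx2 (0.42), Pspc1 (0.40), Gm7609 (0.75) and Lysmd3 (0.46) completed this set.

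After Igfbp5 came 9 lower genes. Sulf1, an enzyme that trims heparan sulfate, had 23.8, 31.7 and 106.7 as lowest, median and highest in WT obese and 4.59, 14.4 and 32.1 in KO obese mice (-1.51, interval -2.43 to -0.58). Spock2, a proteoglycan, had 13.4, 38.3 and 105.7 against 4.59, 9.64 and 28.9 (-1.44, interval -2.36 to -0.53). WT obese mouse 6L, with its high values of some markers of other tissues, was the highest in both and in Igfbp5. KO obese mouse 10R was the lowest in both. Without these mice the log2 fold change was -1.05 for Sulf1, -0.98 for Spock2 and -1.06 for Igfbp5. Disp2, a relative of the hedgehog release protein, had 83.1, 96.1 and 115.5 against 51.2, 68.9 and 86.6 (-0.52, interval -0.81 to -0.24), with 6 of 7 KO obese mice below every WT obese mouse. Others were Ndufaf3 (-0.42), an assembly factor of complex I, Dmwd (-0.28), Suv420h2 (-0.39), 4933406I18Rik (-0.80), Adam33 (-0.75) and the adrenergic receptor Adrb3 (-0.61). Each of these 18 genes had an adjusted p of 0.9999 in limma. Without mice 6L and 10R the 10 higher and 10 lower leading genes, chosen on values that include the 12 mice kept, had log2 fold changes of 0.39 to 1.69 and -1.06 to -0.26, and limma gave each an adjusted p of 0.9995.

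**Figure D5:**
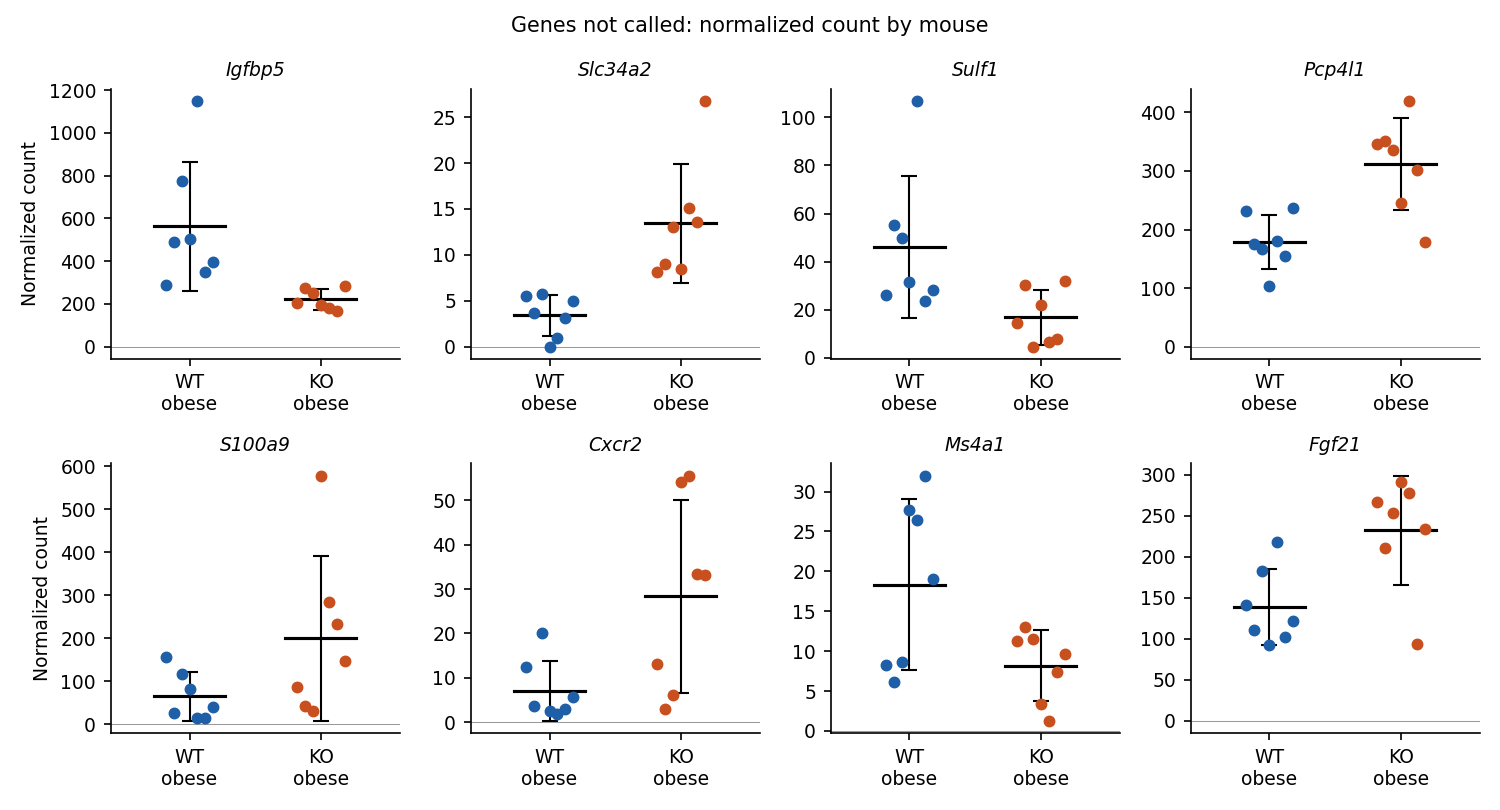
Normalized count by mouse for 8 genes that were not called, with WT obese mice in blue, KO obese mice in orange and black bars at the mean ± SD of 7 mice. Igfbp5 and Slc34a2 did not overlap between the groups, while S100a9 ranged from 30.6 to 578.8 within KO obese mice.

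Genes that differed between lean KO and lean WT mice were looked up in obese mice. In lean mice limma called 866 of 13031 genes (6.65%), 514 (3.94%) higher and 352 (2.7%) lower in KO lean mice. Of 11 genes of the lean genotype comparison, a list drawn from the study's text and earlier results on these mice, 6 were called higher and 5 lower in lean mice, and 0 were called in obese mice. Their lean calls follow from that choice, which also tilts the contrast toward a smaller effect in obese mice. Wfdc17, a gene of activated macrophages, had a log2 fold change of 1.46 in lean and 0.05 (interval -0.33 to 0.43) in obese mice, and the chemokine Cxcl13 had 2.19 in lean and 0.13 (interval -1.24 to 1.49) in obese mice. Acaca had -0.91 in lean and -0.05 in obese mice. The difference between obese and lean effects had limma adjusted p-values of 0.140, 0.192 and 0.145 for these 3 genes. Of the 11 genes 1 passed 0.1, Vwa1. Ms4a6c, a macrophage gene, had 0.92 in lean and 0.44 (interval 0.00 to 0.88) in obese mice. Kupffer cell markers had a median of 0.62 in lean mice, where 12 of 21 were called higher, against 0.11 in obese mice. The difference between obese and lean effects passed an adjusted p of 0.1 in limma for 0 of these 21 genes.

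Tested over 12999 genes, the genotype effect itself differed between obese and lean mice in 7 genes (0.0539%) at an adjusted p below 0.1 in limma, and 2392 genes (18.4%) had an unadjusted p under 0.05. Vwa1, an extracellular matrix gene, had a log2 fold change of 1.19 in lean and -0.46 in obese mice. Nop58, a protein of small nucleolar RNA complexes, had -0.82 in lean and 0.39 in obese mice. This count depended on the settings, from 0 with equal totals, or with the identifier number as a random effect, to 2559 with library quality weights.

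Genes of the study's diet comparison, also chosen on mice of this series, did not differ detectably between the obese genotypes. Of 12 tested, 0 were called and 0 had an unadjusted p under 0.05, with a median of -0.12. Only 5 of the 12 intervals lay inside a fold of 2, so larger differences could be missed. Cyp2b9, a cytochrome P450, ran from 53.8 to 5303 in WT obese and from 27.1 to 4258 in KO obese mice (1.24, interval -1.28 to 3.76), and the ranges overlapped.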

How the data were processed

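Livers of 7 KO obese and 7 WT obese mice, both given vehicle, were compared, with lean and RvE1-treated mice used only where named. Per the labels and the study's methods, the authors built stranded total RNA libraries (the molecule label names polyA RNA), aligned read pairs to mm10 with Bowtie2, ran featureCounts, and scaled each table of 14 libraries by DESeq2 size factors. For versions, annotation and strand no value is given in the sources used here. The deposited signal values are these normalized counts. The tables also hold the authors' own mean, log2 fold change and p-value columns, raw and adjusted, which were not used.

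Dividing each deposited signal column by its value for a single read gave whole reads in 100% of values, within a tolerance of 0.1 reads (84 columns over 6 tables, with 0 reads differing over 56 pairs of the same library in different tables). Differences were tested two-sided with limma 3.58.1 (R 4.3.3, eBayes with trend) on log2(normalized count + 1), for genes with a mean of at least 5, with Benjamini-Hochberg adjustment over all 14162. A fold change on this scale understates that of low genes. The interaction with diet was fitted on 28 mice. edgeR 4.0.16 and DESeq2 1.42.0 were run on recovered reads. Values for Cmklr1 and Wscd2 across tables are reads per 1000000 reads on 12742 genes common to 6 tables. P-values measure the spread between mice.

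Coordinates came from GENCODE M21 (GRCm38) by symbol or a RefSeq synonym (98.7% of tested genes), and the start region from RefSeq GRCm38.p6. Genes under 26 date-like names (21 tested) are not named. Genes named were those called by limma, edgeR or DESeq2, the 10 higher and 10 lower with the smallest unadjusted p, the ChemR23 axis, the neighbours within 1 Mb, the leading members of each list and the study's genes. The members, lists and this rule were chosen with earlier results of these data known. List members beyond the rule were named as textbook representatives. Some list members are not reported here.

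No library repeated another, since chi-square per gene was 48.17 or more in all 91 pairs of the 14 libraries. On simulated data for this comparison over 14162 genes, the limma test recovered 28% of 50 genes changed 1.5-fold, 82% at 2-fold, 96% at 3-fold and 94% at 4-fold, and called 15 unchanged genes. For the interaction over 12999 genes it recovered 87% of 200 genes changed 3-fold and called 24 unchanged genes. In both simulations all changed genes were planted at once, and only among genes with a higher mean than the filter required. Simulated mice were independent, with no effect of identifier number. Recovery where few genes differ, or where mice share an identifier number, was not simulated and may be lower. Alternatives were pseudocounts of 0.5 and 4, no filter, TMM scaling, equal totals, library weights, a random effect of identifier number, other thresholds, other tools, and leaving out each mouse or each number. The Rn45s share as covariate, leaving out mice 6L and 10R together and the interaction formed in the diet tables were added after the data were seen.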

Additional observations from a re-analysis of the deposited data

Results flagged for a closer look

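Within a group of 7 mice, 13 of 58 checks (29 genes in both genotypes) found the highest or lowest mouse apart from the rest by Dixon's 95% criterion on normalized counts, and 4 of 58 did so on log2(normalized count + 1). Chance would flag about 1 in 20 groups of normally distributed, independent values, but the genes share mice and were chosen with their values known, so no excess over chance is read from these counts. KO obese mouse 10-2L was apart for Ptafr (74.6 against 30.0 in the next mouse), Cd68 (245 against 136.2) and Icam1 (590.3 against 350.3). WT obese mouse 6R was apart for Cd68 (162.4 against 84.2), Cx3cr1 (43.8 against 21.9) and Alox15 (39.6 against 16.5). WT obese mouse 6L was apart for Wscd2 (4.90 against 1.03), Sulf1 (106.7 against 55.4) and Spock2 (105.7 against 42.3). KO obese mouse 31R was apart for Slc34a2 (26.7 against 15.2) and Igfbp6 (38.5 against 17.0). Low values stood apart in KO obese mouse 31N for Fgf21 (94.1 against 210.3) and in KO obese mouse 31L for Lta4h (200.7 against 219.3).

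The genotype effect differed between obese and lean mice, tested as an interaction in limma at an adjusted p below 0.1, in 7 genes. With the identifier number as a random effect, or with equal totals, 0 genes passed. The difference, obese minus lean on the log2 scale, was 1.20 for Nop58, 0.71 for Purb, 0.67 for Aftph and 0.62 for Arid4a. It was -1.65 for Vwa1, -0.99 for Zscan2 and -0.88 for Cyb561d2. Nop58 was the only one of the 7 with an unadjusted p under 0.05 within obese mice.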

How the results depend on the processing

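The count of 2 called genes was 2 or 3 under every scaling, pseudocount, filter, weight, threshold and tool tried except equal totals, which gave 1. A random effect of identifier number (consensus correlation 0.2576) gave 0. Leaving out each mouse gave 1 to 2, and leaving out all mice of 1 number gave 0 without 10 or 27, 1 without 22, 31 or 6 and 2 without 23. Leaving out mice 6L and 10R together, chosen after seeing the data, gave 1 and put Cmklr1 at -1.974. The 319 genes at an unadjusted p under 0.05 became 75 with the random effect, 174 without 6L and 10R and 193 with equal totals, but 579 without a filter, 769 with library weights, 228 to 548 with single mice left out (482 without WT 6R, 548 without WT 22L), and 420 to 623 without all mice of 1 number. Cmklr1 kept its direction in all 31 settings and lost its call in 12. Its log2 fold change was -2.08 with equal totals (adjusted p = 0.142), -2.16 with the random effect (0.153), -2.341 without number 10, -1.97 without 22, -2.342 without 27, -2.05 without 31 and -1.85 without 6, and -2.17 to -1.83 with single mice left out. Wscd2 kept its direction in all 31 and lost its call in 3. Its log2 fold change was then 3.499 with the random effect (adjusted p = 0.153), 3.09 without number 10 (0.638) and 3.07 without 27 (0.699). With single mice left out it ran from 3.34 to 3.79. Of 5673 values for 183 other named genes 1 crossed the threshold, Igfbp5 in DESeq2. The 7 interaction genes became 1 with a pseudocount of 4, 0 with equal totals, with the random effect or at an adjusted p below 0.05, 2559 with library weights and 866 in DESeq2, and 1 when formed in the diet tables, an alternative chosen after seeing the data. The medians of 40 gene lists, recomputed with both pseudocounts, no filter, TMM scaling and equal totals, moved by less than the spread between mice in 200 of 200 values. With equal totals the median of all genes was -0.041. The share of intervals inside a fold of 1.5 ran from 52.7% without a filter to 69.3% with a pseudocount of 4. The causes were not tested. Low read numbers limit the precision of scarce genes, Wscd2 in WT mice among them. No paired analysis was possible because replicate numbers were given in accession order and identifier numbers are not shared between genotypes.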
